A study of Homo sapiens with 6 samples.

Results

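Cholesterol is built from acetyl-CoA, and 9 genes of that route and of its carbon supply were followed across 3 small interfering RNAs (siRNAs) in MDA-MB-231 cells. They are ACAT2, HMGCS1, IDI1 and SQLE, which encode enzymes of sterol synthesis, INSIG1, which restrains it, ACSS2, ACLY and AACS, which supply cytosolic acetyl-CoA or acetoacetyl-CoA, and ACACA, which commits acetyl-CoA to fatty acids. They were taken from 14884 named genes by a list of symbols drawn up with the values of these same arrays in view. Their own levels and calls are therefore given as a description and not as a test. Each of the 9 had 1 probe set, and all 9 were bright enough for the fit over 10640 tested genes.

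MDA-MB-231 is a triple-negative human breast cancer cell line that carries a mutant p53. Cells received siATM, against the DNA damage kinase ATM, sip53, against p53, or siNC, the control siRNA, each delivered with a lipid reagent, so every group was transfected. Each siRNA has 2 samples, labelled replicate 1 and replicate 2, with 1 Affymetrix Human Gene 2.0 ST array per sample. Whether the 2 samples of an siRNA were grown and transfected separately is not stated, so every p-value here rests on the spread between such samples, possibly a technical one. The time after transfection and the siRNA sequences are not given in the sources used here, and the transcripts of the targeted genes were not analysed here, so the arrays give no check of either knockdown. All values are log2 expression, where a difference of 1 is a doubling, and in a culture measured in bulk fewer cells with a transcript and less of it per cell cannot be told apart.

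Sterol synthesis runs from acetyl-CoA through mevalonate and the isoprenoid diphosphates to squalene, and from squalene through lanosterol to cholesterol. The transcription factor SREBP-2, encoded by SREBF2, raises most genes of the route when membrane sterol is low, and SREBP-1, encoded by SREBF1, acts more on fatty acid genes. Both precursors are carried from the endoplasmic reticulum by SCAP, and the INSIG proteins hold SCAP back when sterol is plentiful. INSIG1 is itself a known SREBP target, as are HMGCS1, IDI1 and SQLE. Citrate cleavage by ACLY and acetate activation by ACSS2 are the main sources of cytosolic acetyl-CoA, from which both sterols and fatty acids are made.

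With sip53 the 4 synthesis enzymes among the 9 genes were 1.33-fold to 1.61-fold higher than with siNC, ACSS2 was 1.29-fold higher and INSIG1 was 1.37-fold lower. With siATM the 4 enzymes and ACSS2 stayed within 1.10-fold of siNC, ACLY was 1.24-fold lower, ACACA was 1.24-fold higher and INSIG1 was 1.18-fold lower. AACS lay within 1.06-fold of siNC under either siRNA. Because the 9 genes were picked for such differences, these values describe the arrays and support no statement about the pathway.

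The promoters of 7 of the 9 genes were taken from a RefSeq table of windows from 250 bases before to 50 bases after a transcription start, on build GRCh38.p14. SQLE and ACAT2 had no window among those searched, so their promoters are not described. Of the windows, 5 are shown because their genes cover the patterns described here, a choice made after their values were seen. HMGCS1 and IDI1 were higher with sip53, INSIG1 was lower with sip53, ACLY was lower with siATM, and AACS was at nearly 1 level in all groups. They lie at chr5:43313363-43313662 on the minus strand for HMGCS1, chr10:1049070-1049369 on the minus strand for IDI1, chr7:155297628-155297927 on the plus strand for INSIG1, chr17:41918973-41919272 on the minus strand for ACLY and chr12:125065185-125065484 on the plus strand for AACS. Each is printed 5′ to 3′ on the strand of the gene, and capitals mark CCAAT or its reverse complement, the letters bound by NF-Y, a factor known to act beside SREBP.
HMGCS1: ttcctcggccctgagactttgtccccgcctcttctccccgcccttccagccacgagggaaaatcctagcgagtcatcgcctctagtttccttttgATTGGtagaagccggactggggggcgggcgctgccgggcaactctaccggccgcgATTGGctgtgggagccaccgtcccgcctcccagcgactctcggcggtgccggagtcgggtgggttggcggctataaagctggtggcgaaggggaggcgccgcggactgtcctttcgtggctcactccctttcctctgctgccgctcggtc
IDI1: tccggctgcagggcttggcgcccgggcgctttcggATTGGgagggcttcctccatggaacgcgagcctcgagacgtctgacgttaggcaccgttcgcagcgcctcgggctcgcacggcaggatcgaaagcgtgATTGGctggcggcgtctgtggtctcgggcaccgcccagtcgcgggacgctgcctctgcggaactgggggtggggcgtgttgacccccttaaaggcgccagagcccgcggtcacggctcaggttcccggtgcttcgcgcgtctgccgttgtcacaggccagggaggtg
INSIG1: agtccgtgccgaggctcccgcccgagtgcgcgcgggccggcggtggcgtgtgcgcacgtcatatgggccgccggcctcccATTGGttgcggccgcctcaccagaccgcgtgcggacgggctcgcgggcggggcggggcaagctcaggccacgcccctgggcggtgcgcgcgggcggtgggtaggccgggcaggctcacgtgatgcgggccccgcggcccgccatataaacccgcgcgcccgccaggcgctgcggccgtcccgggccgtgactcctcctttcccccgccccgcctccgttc
ACLY: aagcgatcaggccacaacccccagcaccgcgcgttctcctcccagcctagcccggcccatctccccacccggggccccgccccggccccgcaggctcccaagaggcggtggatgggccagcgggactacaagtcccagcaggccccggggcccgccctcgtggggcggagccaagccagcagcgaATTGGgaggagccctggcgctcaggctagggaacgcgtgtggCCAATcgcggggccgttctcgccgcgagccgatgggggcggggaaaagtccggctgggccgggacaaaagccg
AACS: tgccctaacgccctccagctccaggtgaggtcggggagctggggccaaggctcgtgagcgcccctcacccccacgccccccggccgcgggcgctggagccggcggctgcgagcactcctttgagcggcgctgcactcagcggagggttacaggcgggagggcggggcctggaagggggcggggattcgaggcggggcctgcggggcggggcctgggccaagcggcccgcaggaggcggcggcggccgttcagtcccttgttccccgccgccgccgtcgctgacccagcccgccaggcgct

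CCAAT, searched on both strands, was found 155 and 100 bases before the start of HMGCS1, and 170 bases before that of INSIG1. HMGCS1 and INSIG1 lay on opposite sides of siNC with sip53, and the window printed for each holds the motif. A second window of HMGCS1 holds no CCAAT, nor does another window of IDI1, and neither is printed. Any part of the motif in the levels was not tested. CCAAT was in at least 1 window of 6 of the 7 genes, AACS being the exception, and in 9 of their 14 windows, against 34.6% of all 35116 windows in the table. The windows of HMGCS1, those of ACLY and 2 of the 3 of IDI1 overlap, so the 14 are not independent. The sterol regulatory element TCACNCCAC was in 0 of the 14 windows and in 1.13% of all, and the E-box CACGTG was in 1 window, 55 bases before the start of INSIG1, and in 7.26% of all. The GC box GGGCGG was in 13 of the 14 and in 45.0% of all. No motif searched contains another, and all were searched on both strands, where matches may overlap. A missing match says only that these letters are not in this window.

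ACAT2 encodes the cytosolic thiolase that joins 2 acetyl-CoA into acetoacetyl-CoA. Its values were 8.82 and 8.98 with siNC, 8.79 and 8.78 with siATM, and 9.41 and 9.30 with sip53. Both sip53 arrays lay above all others, and the lower siNC array lay next to the siATM arrays. The difference of sip53 from siNC was 0.46 (SE 0.07), and that of siATM from siNC was −0.11 (SE 0.07), close to the SD of 0.11 between the siNC arrays.

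HMGCS1 encodes the synthase that adds a further acetyl unit and makes hydroxymethylglutaryl-CoA, a precursor of mevalonate. Its values were 9.13 and 9.16 with siNC, 9.10 and 9.20 with siATM, and 9.85 and 9.81 with sip53. The siNC values fell between those of siATM, so these groups overlapped, and the sip53 arrays stood apart from both. The mean was 9.14 ± 0.02 with siNC, 9.15 ± 0.07 with siATM and 9.83 ± 0.03 with sip53 (SD, n = 2 each). The sip53 mean was 0.69 (SE 0.06) above that of siNC, the largest difference among the 9 genes, and the difference of siATM from sip53 was −0.68 (SE 0.06).

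IDI1 encodes the isomerase that interconverts the isopentenyl and dimethylallyl diphosphates. Its values were 9.05 and 9.12 with siNC, 9.02 and 8.87 with siATM, and 9.52 and 9.48 with sip53. The order was sip53, siNC, siATM without overlap, but siNC and siATM were apart by 0.14 (SE 0.07) at an SD of 0.11 between the siATM arrays. The difference of sip53 from siNC was 0.42 (SE 0.07).

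SQLE encodes squalene epoxidase, a control point of the second part of the route. Its values were 8.36 and 8.31 with siNC, 8.31 and 8.34 with siATM, and 8.83 and 8.77 with sip53. The siNC and siATM arrays overlapped and their means differed by 0.01 (siATM minus siNC −0.01, SE 0.06). The sip53 arrays were above all others, by 0.47 (SE 0.06) over siNC on average.

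INSIG1 is the restraining gene of the set, and it went the other way. Its values were 11.37 and 11.43 with siNC, 11.16 and 11.16 with siATM, and 10.96 and 10.92 with sip53. The 3 groups did not overlap, and the order was siNC, siATM, sip53. The difference from siNC was −0.24 (SE 0.06) with siATM and −0.46 (SE 0.06) with sip53, and siATM lay 0.22 (SE 0.06) above sip53.

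ACSS2 encodes the synthetase that makes acetyl-CoA from acetate. Its values were 9.58 and 9.60 with siNC, 9.62 and 9.52 with siATM, and 9.94 and 9.98 with sip53, so siNC and siATM overlapped and sip53 was higher. The difference of sip53 from siNC was 0.36 (SE 0.06). ACLY encodes ATP citrate lyase, which releases acetyl-CoA from exported citrate. Its values were 11.50 and 11.59 with siNC, 11.20 and 11.27 with siATM, and 11.70 and 11.65 with sip53. Here the siATM arrays were the ones apart, 0.31 lower than siNC (−0.31, SE 0.06), while sip53 was 0.13 (SE 0.06) above siNC.

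AACS encodes acetoacetyl-CoA synthetase, which activates the ketone body acetoacetate in the cytosol. Its values were 8.86 and 8.91 with siNC, 8.75 and 8.85 with siATM, and 8.83 and 8.86 with sip53. The siATM and sip53 arrays overlapped, and the means of both were within 0.08 of siNC. ACACA encodes acetyl-CoA carboxylase, which forms malonyl-CoA, the first step of fatty acid synthesis. Its values were 9.38 and 9.46 with siNC, 9.80 and 9.65 with siATM, and 9.63 and 9.58 with sip53. Both knockdown groups were above siNC, by 0.31 (SE 0.07) with siATM and 0.19 (SE 0.07) with sip53. The siATM mean lay 0.12 (SE 0.07) above that of sip53, at an SD of 0.11 between the siATM arrays.

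**Figure D1:**
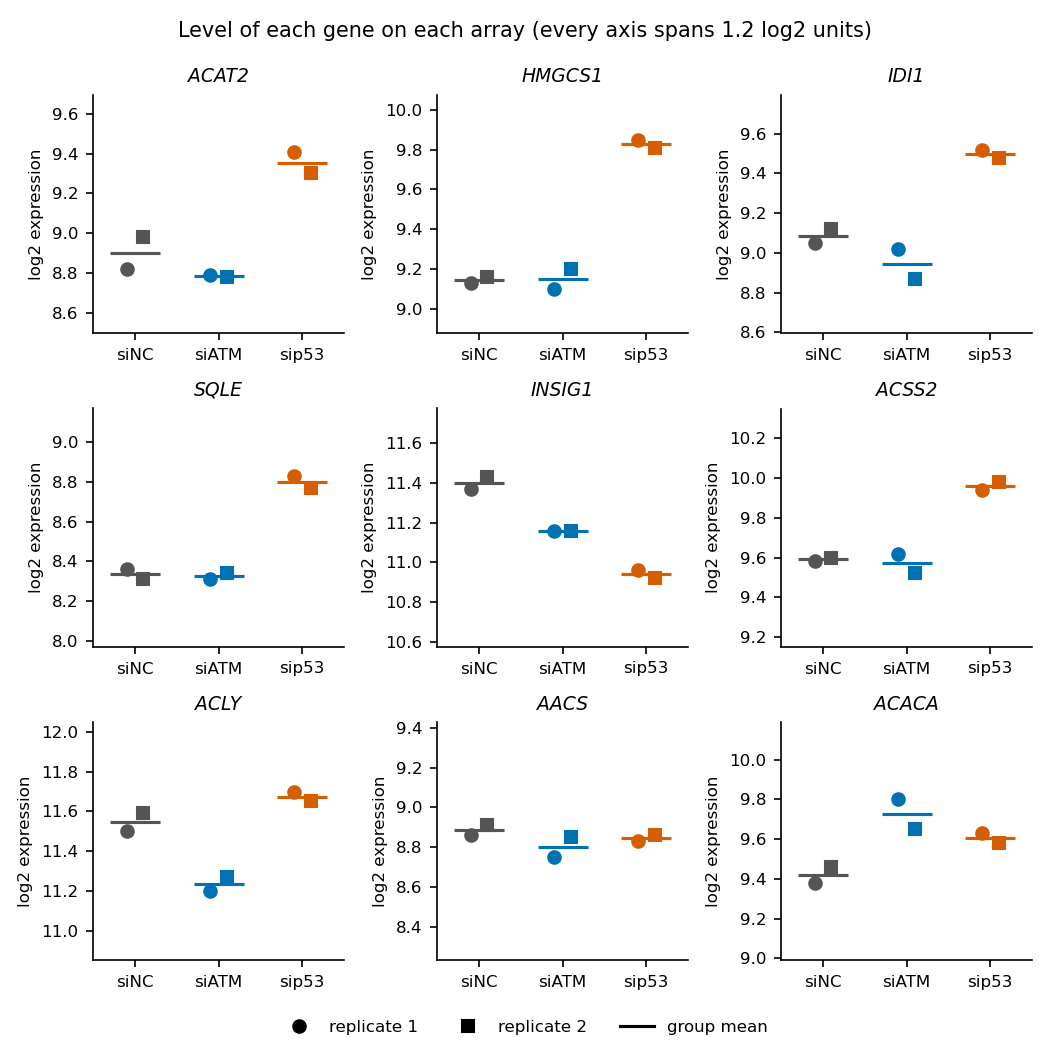
Log2 expression (vertical axis, each panel spanning the same range) of the 9 genes on each of the 6 arrays, by siRNA, with circles for replicate 1, squares for replicate 2 and a line at the mean of the 2 arrays. The sip53 arrays of ACAT2, HMGCS1, IDI1, SQLE and ACSS2 lie above all others, those of INSIG1 lie below all others, and the siATM arrays of ACLY stand apart downward. For ACACA both the siATM and the sip53 arrays lie above siNC, with the lower siATM array next to the sip53 arrays.

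Counted as calls at a limma adjusted p below 0.05 over all 10640 genes, 5 of the 9 genes were higher with sip53 than with siNC, where 5.47% of all tested genes were, and 1 was lower, where 5.11% were. Against siNC, siATM gave 1 higher and 2 lower calls among the 9, where 12.5% and 13.0% of all genes were called. In the direct comparison 1 of the 9 was higher with siATM than with sip53 and 6 were lower, against 14.0% and 16.3% of all genes. Both siATM arrays lay above both siNC arrays for 1 of the 9 and below them for 5, where 31.9% and 30.8% of all genes did so (62.7% in either direction). For sip53 against siNC the counts were 7 above and 2 below, where 33.1% and 25.8% did so (58.9%). For siATM against sip53 they were 2 above and 6 below, where 31.0% and 34.4% did so (65.4%). The 9 were chosen from these contrasts, so nothing is read from the counts. Without siNC replicate 1 or sip53 replicate 1 the sip53 count fell from 6 to 3, and without siNC replicate 2 or sip53 replicate 2 it was 4. The siATM count fell from 3 to 0 without siNC replicate 2, and to 1 without siNC replicate 1, without siATM replicate 1 or with no filter on dim genes. HMGCS1, SQLE and INSIG1 stayed called for sip53 against siNC, and HMGCS1, SQLE, ACAT2, IDI1, ACSS2 and ACLY for siATM against sip53, whichever array was left out. Calls that held are still calls of genes chosen for such differences, so they are a description too and no support for the pathway. Both comparisons with siNC use the same 2 control arrays, so they are not independent of each other.

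The other tested enzymes of cholesterol synthesis also lay above siNC after sip53, though few passed the test. Of 23 listed enzymes, 16 were in the table and 15 were tested. IDI2, a second isomerase, was below the filter and not tested, and its sip53 values of 5.28 and 5.34 lay below those of siNC, 5.42 and 5.41. The 7 remaining enzymes were not analysed here. With sip53 all 15 tested enzymes had both arrays above both siNC arrays, where 33.1% of all genes did, and the median difference was 0.26 against 0.01 over all genes. Calls were fewer, with 6 of 15 higher and 0 lower, where 5.47% and 5.11% of all genes were called. Without the 4 enzymes among the 9 genes, 11 of 11 lay above siNC on both arrays, with a median of 0.22, and 2 of 11 passed, MSMO1 and MVK. The list was drawn up with these results known, and removing the 4 takes out those that had differed most.

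MSMO1, a demethylase of the sterol ring, had values of 11.85 and 11.99 with siNC and 12.30 and 12.33 with sip53, and rose by 0.39 (SE 0.07, limma adjusted p = 0.0149). MVK, the mevalonate kinase, rose by 0.25 (SE 0.06, limma adjusted p = 0.0337), from 8.89 and 8.85 to 9.10 and 9.14. Both calls depend on single arrays. The call of MVK went when any siNC or sip53 array was dropped (limma adjusted p up to 0.188) and that of MSMO1 when siNC replicate 1 or a sip53 array was (highest 0.1), and neither passed with no filter on dim genes. FDPS, the farnesyl diphosphate synthase, was 0.22 higher with limma adjusted p = 0.0557, and LBR 0.34 higher with limma adjusted p = 0.0804. LBR is a protein of the inner nuclear membrane that also reduces the sterol ring.

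With siATM the same 15 enzymes were spread around siNC, 7 above and 8 below, with a median of −0.01. Both siATM arrays lay above both siNC arrays for 5 and below them for 6, where 31.9% and 30.8% of all genes did so. The test called 2 of 15 higher and 1 lower, where 12.5% and 13.0% of all genes were called. LBR was the enzyme that fell. Its values were 10.27 and 10.07 with siNC, 9.67 and 9.41 with siATM, and 10.52 and 10.49 with sip53. It was 0.63 lower with siATM than with siNC (−0.63, SE 0.10, limma adjusted p = 0.00527). PMVK, the phosphomevalonate kinase, rose by 0.33 (SE 0.07, limma adjusted p = 0.0144), from 7.27 and 7.44 to 7.66 and 7.71. It lost the call without siNC replicate 1 or siATM replicate 2 (limma adjusted p up to 0.0815). MSMO1 rose by 0.23 (limma adjusted p = 0.0468), and that call did not survive the loss of any of the 6 arrays (highest 0.228).

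Set directly against sip53, siATM gave lower values for 14 of the 15 enzymes, with a median of −0.25 against −0.01 over all genes. The test called 9 of 15 lower and 0 higher, where 16.3% and 14.0% of all genes were called, and 4 of those 9 calls are enzymes chosen for such differences. Of the 11 outside the 9 genes, 5 were called lower. LBR differed most (−0.97, SE 0.10, limma adjusted p = 0.000768), followed by FDPS (−0.32, SE 0.06, limma adjusted p = 0.00538), whose values were 8.87 and 8.82 with siATM and 9.16 and 9.18 with sip53. Both kept the call whichever array was left out. NSDHL, a sterol dehydrogenase, was at −0.27 and DHCR7, the reductase of the last step, at −0.25. NSDHL lost the call without siATM replicate 2 or sip53 replicate 2 (limma adjusted p up to 0.109), and DHCR7 without either siATM array, without sip53 replicate 2 or with no filter (up to 0.163). EBP, a sterol isomerase named here to complete the count, was at −0.19 and lost the call whichever array was left out (up to 0.156).

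**Figure D2:**
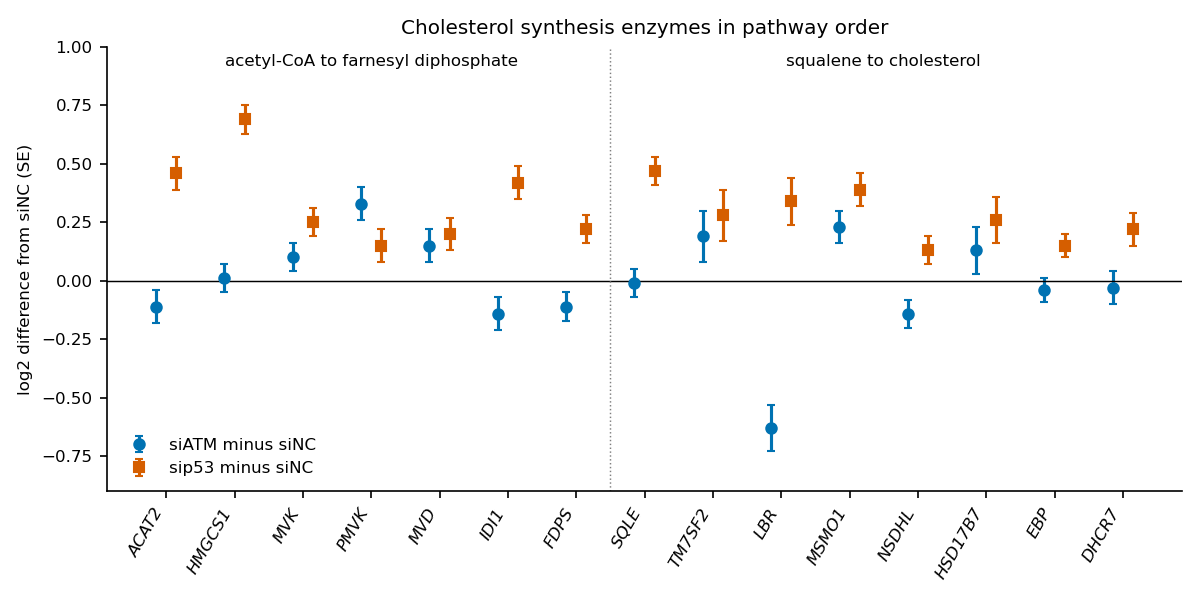
Log2 difference from siNC (vertical axis, with the standard error of the limma fit as bars) for the 15 tested enzymes in the order of the pathway, for siATM (circles) and sip53 (squares). All 15 squares lie above 0, from 0.13 for NSDHL to 0.69 for HMGCS1, while the circles run from −0.63 for LBR to 0.33 for PMVK, both series being set against the same siNC arrays.

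Among the genes that control sterol synthesis, INSIG2 fell with both siRNAs and SREBF1 differed between them. INSIG2 encodes the second INSIG protein. Its values were 8.47 and 8.56 with siNC, 8.07 and 7.92 with siATM, and 7.81 and 7.69 with sip53, with no overlap between groups. It fell by 0.52 with siATM (−0.52, SE 0.08, limma adjusted p = 0.00367) and by 0.76 with sip53 (−0.76, SE 0.08, limma adjusted p = 0.00253). It kept both calls whichever array was left out. The siATM arrays were 0.24 above the sip53 arrays, which did not pass (limma adjusted p = 0.0529).

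SREBF1 had values of 9.11 and 9.14 with siNC, 9.35 and 9.34 with siATM, and 8.89 and 8.87 with sip53. The siATM arrays were highest and the sip53 arrays lowest, a difference of 0.46 (SE 0.05, limma adjusted p = 0.00104) that was still called with any single array removed. Against siNC it rose with siATM by 0.22 (limma adjusted p = 0.0240) and fell with sip53 (−0.24, limma adjusted p = 0.0333). Each of these was lost when 1 array was left out, the first for any of the 6 arrays (highest 0.114) and the second for any from siNC or sip53 (highest 0.179). SREBF2 had values of 9.16 and 9.32 with siNC, 9.15 and 9.39 with siATM, and 9.36 and 9.35 with sip53. The siNC and siATM arrays overlapped, and no difference of SREBF2 passed the test (limma adjusted p = 0.493 to 0.839). The arrays measure transcripts and hold nothing on the cleavage that activates the SREBP proteins.

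SCAP, the escort of both SREBPs, was 9.39 and 9.42 with siNC, 9.55 and 9.70 with siATM, and 9.13 and 9.22 with sip53. Only the direct comparison passed for SCAP, with siATM 0.45 above sip53 (SE 0.07, limma adjusted p = 0.00313), and this held whichever array was left out. RNF145, a ubiquitin ligase of the endoplasmic reticulum, rose with siATM from 9.41 and 9.36 to 9.81 and 9.77 (0.40, SE 0.06, limma adjusted p = 0.00466), and its sip53 arrays, at 9.41 and 9.30, overlapped siNC. MYLIP, a ubiquitin ligase that limits lipoprotein uptake, rose with siATM by 0.49 (SE 0.07, limma adjusted p = 0.00268) and with sip53 by 0.28 (limma adjusted p = 0.0443). The siATM call held whichever array was left out, but the sip53 call of MYLIP was lost when any siNC or sip53 array was dropped (highest 0.206). Its difference between the siRNAs, 0.22 (limma adjusted p = 0.049), was lost with any array dropped (highest 0.167). In all, 7 control genes outside the 9 were tested of 15 listed. Of these, 3 rose and 1 fell with siATM, where 12.5% and 13.0% of all genes were called, and 1 rose and 2 fell with sip53, where 5.47% and 5.11% were. In the direct comparison 4 were higher with siATM and 0 lower, against 14.0% and 16.3%.

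**Figure D3:**
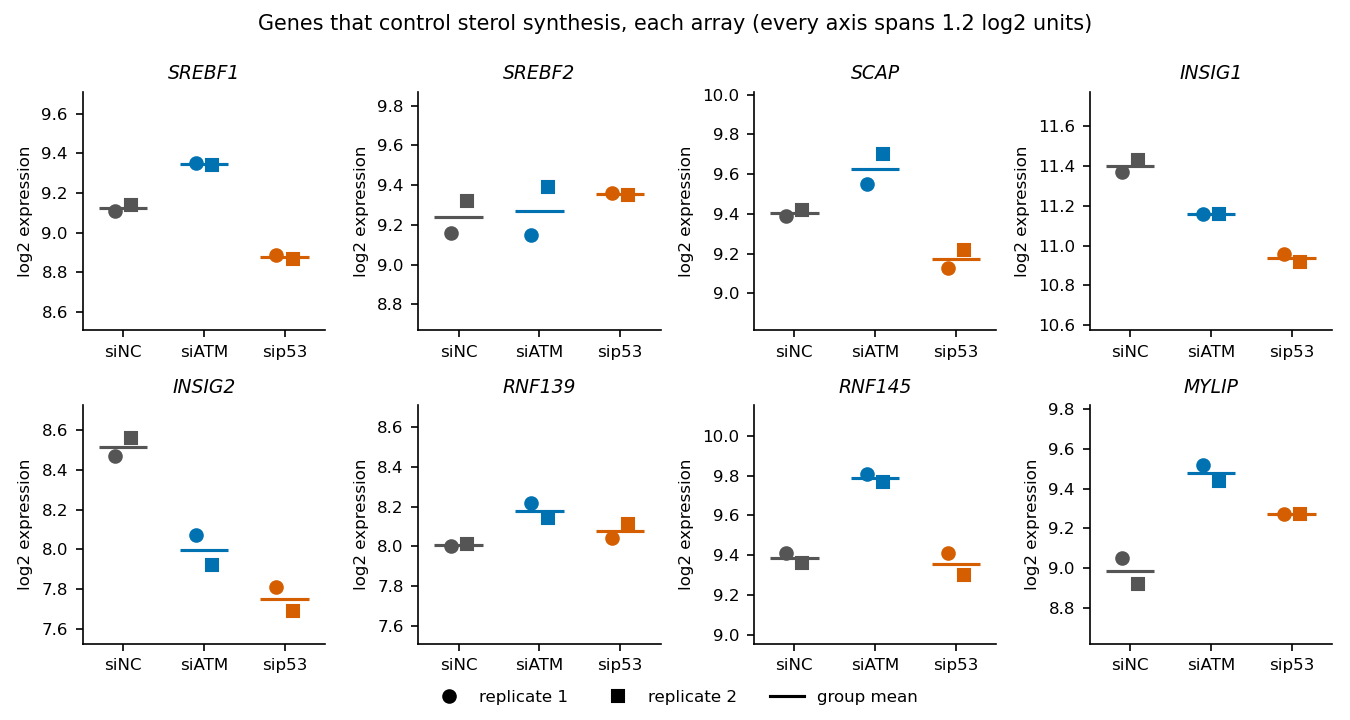
Log2 expression (vertical axis, each panel spanning the same range) of 8 genes that control sterol synthesis on each of the 6 arrays, by siRNA, with circles for replicate 1, squares for replicate 2 and a line at the mean. INSIG1 and INSIG2 step down from siNC to siATM to sip53, SREBF1 and SCAP are highest with siATM and lowest with sip53, and the SREBF2 arrays of siNC and siATM overlap.

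Beside ACLY, ACSS2 and AACS, 2 other genes of the acetyl-CoA list of 10 were tested, and they encode enzymes of citrate formation in mitochondria. CS, the citrate synthase, was 8.92 and 8.94 with siNC, 9.11 and 8.96 with siATM, and 8.41 and 8.49 with sip53. It fell with sip53 (−0.48, SE 0.07, limma adjusted p = 0.00724), a call lost without sip53 replicate 1 or siNC replicate 2 (up to 0.0620). The direct comparison of CS, with siATM 0.58 above sip53 (SE 0.07, limma adjusted p = 0.00105), held whichever array was left out. PC, the pyruvate carboxylase, fell with siATM from 9.67 and 9.68 to 9.37 and 9.47 (−0.26, SE 0.06, limma adjusted p = 0.0236), and lost the call without either siNC array, without siATM replicate 1 or with no filter (up to 0.105). Its sip53 arrays, at 9.64 and 9.71, spanned those of siNC, and siATM was 0.26 below sip53 (−0.26, limma adjusted p = 0.0196, up to 0.124 without siATM replicate 1, without either sip53 array or with no filter).

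Among fatty acid genes outside ACACA, 16 of 26 listed were tested. With sip53 1 rose and 3 fell, with a median of 0.04, where 5.47% and 5.11% of all genes were called. With siATM 2 rose and 3 fell, with a median of 0.06, where 12.5% and 13.0% were called. In the direct comparison 4 were higher with siATM and 2 lower, where 14.0% and 16.3% of all genes were called. The difference from the sterol enzymes was not tested. FASN, the fatty acid synthase, was 10.17 and 10.13 with siNC, 10.23 and 10.31 with siATM, and 10.17 and 10.21 with sip53. SCD, the main desaturase of saturated fatty acids, was 13.06 and 13.11 with siNC, 13.21 and 13.24 with siATM, and 13.16 and 13.10 with sip53. No difference of either gene passed the test (limma adjusted p = 0.107 to 0.702).

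The largest changes in the fatty acid list were falls of SCD5 and ELOVL7. SCD5, a second desaturase, was 8.97 and 8.93 with siNC, 8.42 and 8.56 with siATM, and 8.29 and 8.37 with sip53. It fell with siATM (−0.46, SE 0.07, limma adjusted p = 0.00384) and with sip53 (−0.62, SE 0.07, limma adjusted p = 0.00318), and both calls held whichever array was left out. ELOVL7, an elongase of long chains, fell with siATM (−0.57, SE 0.09, limma adjusted p = 0.00527), from 6.53 and 6.40 to 5.77 and 6.02, which lies around 5.96, the level set as the filter on a gene's mean. ELOVL6, an elongase known as an SREBP-1 target, rose with sip53 by 0.25 (limma adjusted p = 0.0372), from 9.67 and 9.65 to 9.95 and 9.87, while its siATM arrays lay at 9.65 and 9.64. That rise was lost when any siNC or sip53 array was dropped (highest 0.206), and siATM was 0.27 below sip53 (−0.27, limma adjusted p = 0.0120, lost without sip53 replicate 1 at 0.0924).

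Other calls in this group were smaller. FADS3 (−0.38, limma adjusted p = 0.0106) and ACSL4 (−0.37, limma adjusted p = 0.0193) fell with sip53. ACSL4 activates polyunsaturated fatty acids, and both calls were lost without siNC replicate 1 or either sip53 array, that of ACSL4 also without siNC replicate 2 (up to 0.0761 and 0.132). ACSL1, which activates long-chain fatty acids, rose with siATM by 0.32 (limma adjusted p = 0.0213, lost without siNC replicate 1 or either siATM array, up to 0.107). FADS1, a desaturase of polyunsaturated chains, fell with siATM (−0.24, limma adjusted p = 0.0193). That call was lost with no filter, and without either siNC array or siATM replicate 1. MID1IP1, an activator of acetyl-CoA carboxylase named here to complete the count, rose with siATM by 0.28 (limma adjusted p = 0.011). It lost the call without either siNC array (highest 0.0614) and, with the mean of its probe sets in place of the brightest, had limma adjusted p = 0.971. MID1IP1 was also 0.20 higher with siATM than with sip53 (limma adjusted p = 0.0302). That call was lost with any array dropped and with the mean of its probe sets. In the direct comparison FADS3 (0.42), ACSL1 (0.40) and ELOVL1 (0.31) were higher with siATM, and FADS1 was lower (−0.32). By limma these had adjusted p = 0.00238, 0.00674, 0.0187 and 0.00444, and of these 4 genes ELOVL1 lost the call with an array left out, without siATM replicate 1 or sip53 replicate 2 (up to 0.119).

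Of the genes that take up, carry or store sterol, 8 of 18 listed were tested. With siATM 1 rose and 2 fell, where 12.5% and 13.0% of all genes were called. With sip53 0 passed in either direction by limma, where 5.47% and 5.11% of all genes did. At an unadjusted limma p below 0.05, 1 of the 8 was lower with sip53, as were 1256 of all 10640 genes. STARD4, a cytosolic sterol carrier and a known SREBP-2 target, was 9.44 and 9.30 with siNC, 8.81 and 8.67 with siATM, and 9.10 and 9.09 with sip53. It fell with siATM (−0.63, SE 0.07, limma adjusted p = 0.00159), while its sip53 difference of −0.27 did not pass (limma adjusted p = 0.0609), and siATM was 0.35 below sip53 (−0.35, limma adjusted p = 0.0110, lost without siATM replicate 2 or either sip53 array, up to 0.0601). Its sip53 arrays lay below both siNC arrays, where those of HMGCS1 and SQLE lay above.

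CH25H, which makes 25-hydroxycholesterol, an oxysterol that restrains SREBP processing, fell with siATM (−0.48, SE 0.06, limma adjusted p = 0.00232), from 6.47 and 6.42 to 5.90 and 6.02, which lies around the filter of 5.96. Its sip53 arrays were at 6.34 and 6.33, and siATM was 0.38 below them (−0.38, limma adjusted p = 0.00444). Both calls of CH25H held whichever array was left out. VLDLR, a lipoprotein receptor, was 0.28 higher with siATM than with siNC (limma adjusted p = 0.0447) and 0.28 higher than with sip53 (limma adjusted p = 0.0412), but the first was lost when any siNC or siATM array was dropped (highest 0.169) and the second with any array but sip53 replicate 2 dropped (highest 0.223). Of 14 genes that lead from isoprenoids to prenylated proteins, dolichol and ubiquinone, 4 were tested. ZMPSTE24, the protease that trims farnesylated prelamin A, was lower with siATM than with siNC (−0.24, limma adjusted p = 0.0213) and than with sip53 (−0.33, limma adjusted p = 0.00486). The first call was lost without either siNC array or siATM replicate 1 (up to 0.119), and the second held.

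Mitochondrial genes of ketone bodies and acetate served as a contrast to the cytosolic route, with 4 of 10 tested. OXCT1, which returns acetoacetate to acetyl-CoA in mitochondria, was 8.05 and 8.11 with siNC, 7.50 and 7.65 with siATM, and 8.57 and 8.64 with sip53. The groups did not overlap, and the direct difference of −1.03 (SE 0.07, limma adjusted p = 0.000259) was larger in size than that of any of the 15 cholesterol enzymes. OXCT1 fell with siATM (−0.50, limma adjusted p = 0.00288) and rose with sip53 (0.53, limma adjusted p = 0.00575), the rise being lost without sip53 replicate 2 (0.0522). ACSS3, a mitochondrial relative of ACSS2, was 7.26 and 7.22 with siNC, 6.68 and 6.70 with siATM, and 6.98 and 7.0 with sip53. It fell with siATM (−0.55, limma adjusted p = 0.000941) and with sip53 (−0.25, limma adjusted p = 0.0310, lost when any siNC or sip53 array was dropped, highest 0.169), and siATM was below sip53 (−0.30, limma adjusted p = 0.00626). ACSS2 and ACSS3 lay on opposite sides of siNC with sip53. ACAT1, the mitochondrial counterpart of ACAT2, had differences from siNC of −0.08 with siATM and 0.06 with sip53, and neither passed (limma adjusted p = 0.371 and 0.569). ACAT1 was picked as this counterpart with its values known.

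**Figure D4:**
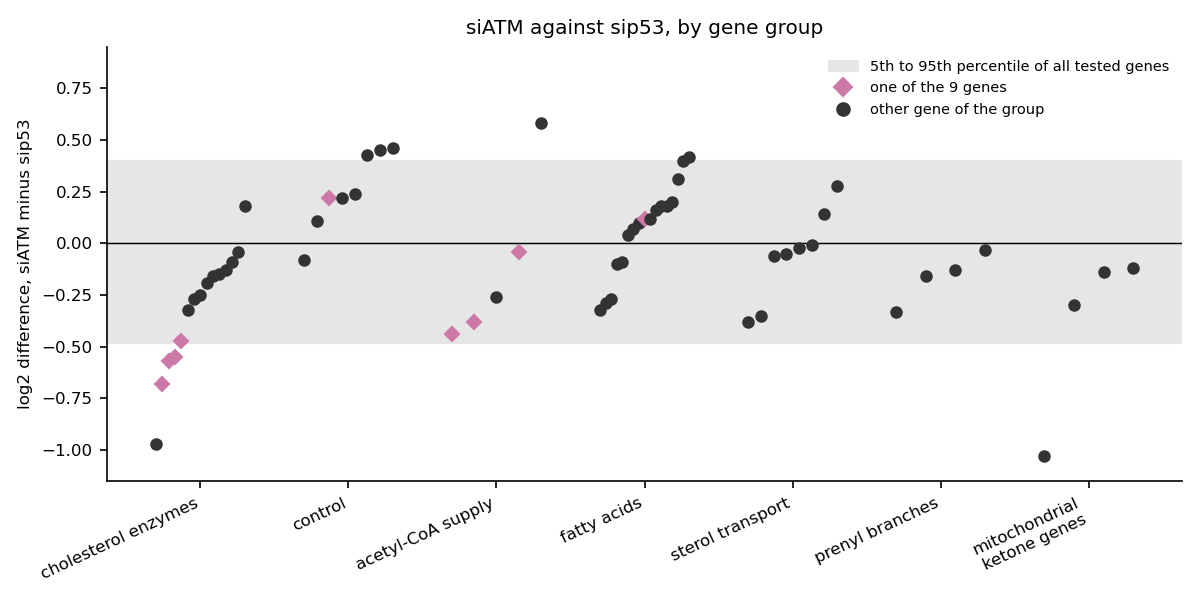
Log2 difference of siATM minus sip53 (vertical axis) for each tested gene of 7 groups, in rising order within a group, with diamonds for the 9 genes, circles for the others and a grey band from the 5th to the 95th percentile of all 10640 genes (−0.48 to 0.40). Among cholesterol enzymes 14 of 15 points lie below 0, among control genes 7 of 8 lie above it, and OXCT1 is the lowest point.

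Over all 7 lists of sterol, acetyl-CoA and lipid genes together, 48 genes outside the 9 were tested. With siATM 8 rose and 9 fell, with sip53 4 rose and 6 fell, and in the direct comparison 10 were higher and 11 lower with siATM. Their medians were 0.05, 0.07 and −0.04. In all genes 25.5%, 10.6% and 30.3% were called in these comparisons. The count with sip53, 10 of 48, was 2 without sip53 replicate 1, 3 without siNC replicate 1 or sip53 replicate 2, and 4 without siNC replicate 2 or with no filter on dim genes. It was 16 with the filter at the 70th percentile and 17 with trend and robust moderation. That with siATM, 17 of 48, was 8 without siNC replicate 1 and 10 without siNC replicate 2 or with no filter. The direct count, 21 of 48, lay between 13 and 17 with 1 array left out, lowest without sip53 replicate 2, and was 14 with no filter.

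Tested genes were ranked by likeness to HMGCS1 and to INSIG1, leaving out symbols of the LOC, LINC, MIR, small RNA, antisense and intronic transcript types. The 3 most like HMGCS1 across the 6 arrays were CCDC126, RASA2, an inactivator of Ras, and FNIP2, a partner of folliculin. Likeness was the root mean square of the difference between values centred on each gene's own mean, which was 0.0662, 0.0689 and 0.0701 log2 units. SQLE ranked 19, ACAT2 21, IDI1 45 and ACSS2 93 by this measure, while ACLY ranked 610, AACS 4438, ACACA 5262 and INSIG1 9310. CCDC126 was 6.96 and 6.93 with siNC, 6.98 and 6.88 with siATM, and 7.62 and 7.53 with sip53. Most like INSIG1 were EML4, a microtubule-binding protein, ETV1, a transcription factor of the ETS family, and ERH, at 0.0282, 0.0359 and 0.0395. EML4 stepped down in the same order, from 11.12 and 11.12 with siNC to 10.82 and 10.84 with siATM and 10.67 and 10.64 with sip53. These genes were found by their values on the arrays and are given as a description.

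The arrays matched the labelled cell line in part. VIM, CD44, AXL, MSN and S100A4 had means between 9.44 and 12.69. They are the 5 of 8 listed markers of mesenchymal-like lines that were in the table. ESR1, PGR and FOXA1 lay below the filter of 5.96. Of the 7 genes listed as low in this line and found in the table, 4 were above the filter, EPCAM at 9.02, GATA3 at 8.40, TFF1 at 7.01 and ERBB3 at 6.52. GATA3 rose with sip53 (0.65, limma adjusted p = 0.00417) and with siATM (0.31, limma adjusted p = 0.0273), the latter lost without either siNC array or siATM replicate 1 (highest 0.121). TFF1 was 0.28 lower with sip53 than with siNC (−0.28, limma adjusted p = 0.0704), and ERBB3 was lower with siATM than with sip53 (−0.35, limma adjusted p = 0.00532). S100A4 rose with siATM (0.39, limma adjusted p = 0.0162), a call lost without siATM replicate 1 or siNC replicate 2 (highest 0.0804). The summed log2 level of the 7 genes listed as low was 46.5 to 46.9 with siNC, 46.2 to 46.9 with siATM and 47.0 to 47.1 with sip53. Markers of adipocytes (5 of 7 in the table, means up to 6.50) and of hepatocytes (5 of 7, up to 6.58), cells rich in these pathways, were mostly below the filter. The 2 of each list that were tested had 0 calls by limma in any comparison. At an unadjusted limma p below 0.05, 1 hepatocyte marker was lower with siATM than with either other siRNA. Of all 10640 genes, 2004 were lower with siATM than with siNC by that measure, and 2323 lower than with sip53. Of leukocyte markers 2 of 7 were in the table, CD68 with a mean of 11.94 and LYZ with 7.05. LYZ rose with siATM (0.38, limma adjusted p = 0.00392). Both were higher with siATM than with sip53, LYZ by 0.53 (limma adjusted p = 0.000785) and CD68 by 0.29 (limma adjusted p = 0.0128). That call of CD68 was lost without sip53 replicate 1 or siATM replicate 2. The summed levels of the 2 markers were 18.8 and 19.0 with siNC, 19.4 and 19.5 with siATM and 18.6 on both sip53 arrays. The markers with values were picked with their values in view, and the part of these markers in the results was not tested. Over all genes the sip53 calls were 582 higher and 544 lower, but 410 and 668 after median centring of the arrays.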

How the data were processed

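Values were deposited on a log2 scale, as judged from their range of 1.33 to 14.2, for every probe set of 6 arrays. The authors' background correction, normalization and annotation build are not given in the sources used here. Once sorted, the 6 arrays spanned 0.0325 on average at a given rank, so they had been brought to nearly 1 distribution, which hides any change in total RNA per cell. Of 53617 probe sets, 16098 had 1 gene symbol in the platform annotation, 0 had several and 37519 are unnamed here. The brightest of a gene's probe sets was used.

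Genes with a mean at or above 5.96, the median of probe-set means, were fitted with limma (version 3.58.1, R 4.3.3) on all 6 arrays, with 3 residual and 7.29 total degrees of freedom. P-values are two-sided and adjusted by Benjamini-Hochberg over 10640 genes within a contrast, and below 0.05 was called. The procedure was run on simulated data with planted differences larger than many of those called here. Its power for such smaller differences was not tested. The number of arrays limits the precision, and no scan date or batch could be examined.

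The 9 genes and the gene lists were chosen with earlier results of these data known. The genes named beside the 9 were 8 regulators and lipid enzymes where measured, up to 4 called genes with the largest difference per list and contrast, and the 3 genes most like HMGCS1 and INSIG1; exceptions are stated. Alternatives were the filter, scaling, probe-set mean, moderation, a replicate block, fits of 2 groups and leaving out each array. Transcripts of the targeted genes are not analysed here.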

Additional observations from a re-analysis of the deposited data

How the results depend on the processing

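With no filter on dim genes, the called genes of the 7 lists, the 9 genes included, fell from 20 to 11 for siATM against siNC and from 16 to 10 for sip53 against siNC, and all calls for sip53 fell from 1126 to 481, the fit then testing 14884 genes. With trend and robust moderation the sip53 calls were 1742. With 1 array left out, all calls ranged from 1437 to 2226 for siATM (2708 with all arrays), from 272 to 1242 for sip53, and from 1842 to 2852 for siATM against sip53 (3219 with all arrays). Those of the 7 lists ranged from 9 to 18, from 5 to 20, and from 19 to 24 (28 with all arrays). The lowest siATM counts came without siNC replicate 1 and the lowest sip53 counts without a sip53 array. Over 14 alternatives the sip53 difference of HMGCS1 stayed between 0.66 and 0.71, that of SQLE between 0.43 and 0.49, and that of INSIG1 between −0.49 and −0.43. The siATM differences of HMGCS1 (−0.04 to 0.06), SQLE (−0.03 to 0.02) and ACSS2 (−0.07 to 0.03) changed sign and have no direction. The labels give each group replicates 1 and 2 without saying what a number shares, and the differences between replicates correlated at 0.0363, 0.0277 and 0.117 between groups, not above 0.1 for every pair, so the numbers were not used to pair samples. With the replicate number as a block the sip53 calls were 1001, and 4 calls of named genes were lost and 4 gained. Of 66 calls of named genes outside the 9, 35 held whichever array was left out. With no filter 21 of these 66 were lost.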
